A study of Homo sapiens with 12 samples.

Results

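The TRAIL receptors and the genes of the extrinsic apoptosis pathway were described by every array probe annotated to TNFRSF10A, TNFRSF10B, TNFRSF10C, TNFRSF10D, FAS, FADD, CASP8, CASP10, CFLAR or TNFSF10. These 10 genes had 16 of the 47231 probes on the array. They were measured in K562, a human erythroleukemia cell line, on 12 Illumina BeadChips in 4 groups of 3: AE9a-expressing cells given siRNA against PRMT1 (siPRMT1), AE9a-expressing cells given control siRNA, wild type cells given siPRMT1 and wild type cells given control siRNA. AE9a is a shortened form, made by alternative splicing, of the fusion protein AML1-ETO (RUNX1-RUNX1T1) of acute myeloid leukemia. PRMT1 is an enzyme that methylates arginines of histones and other proteins. All cells, controls included, were nucleofected with 3 µg of siRNA and harvested 24 hours later. The series title asks about PRMT1 in transcriptional activation by AML1-ETO. The labels do not give the promoter that drives AE9a, whether the AE9a line is 1 clone, or whether replicates came from separate cultures. The p-values therefore cover the spread among these arrays alone, and that spread may be technical.

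The extrinsic pathway starts when a death ligand binds a death receptor at the cell surface. TRAIL (TNFSF10) binds the death receptors TNFRSF10A and TNFRSF10B, also known as DR4 and DR5, and the decoy receptors TNFRSF10C and TNFRSF10D, which lack a working death domain. The engaged receptor recruits the adaptor FADD, which brings in the initiator caspases CASP8 and CASP10, whereas CFLAR (c-FLIP), a relative of CASP8 without protease activity, limits their activation. The members lie on several chromosomes. In the RefSeq annotation TNFRSF10B, TNFRSF10C, TNFRSF10D and TNFRSF10A are consecutive protein-coding genes on chromosome 8, and CFLAR, CASP10 and CASP8 are consecutive protein-coding genes on chromosome 2.

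The genes were chosen by earlier results of these data, above all the TNFRSF10B signal of AE9a siPRMT1 arrays against AE9a controls. TNFRSF10B values in comparisons that involve those arrays are therefore a description, with no p-value. The targeted gene PRMT1 had raw intensities of 461.4, 467.9 and 525.8 in AE9a siPRMT1 arrays, against 793.8, 816.8 and 695.3 in AE9a controls. It read 1269.7, 1003.6 and 902.3 in wild type siPRMT1 arrays, against 1166.2, 1338.7 and 1832.0 in wild type controls, so that wild type siPRMT1 1 lay above wild type control 1. PRMT1 fell in AE9a cells (log2 fold change -0.61 ± 0.16 SE, limma adjusted p = 0.021), a call that ended without AE9a control 1 or 2 or AE9a siPRMT1 1 or 2, and it did not pass in wild type cells (-0.46 ± 0.16, adjusted p = 0.487). Without wild type control 3 the wild type PRMT1 change was -0.29 (adjusted p = 0.292). The fall of PRMT1 was not shown to differ between the lines (difference -0.14 ± 0.23, interval -0.63 to 0.34, limma adjusted p = 0.852). The lines also differed in PRMT1 before any knockdown. In AE9a against wild type cells it was at -0.89 ± 0.16 under control siRNA (limma adjusted p = 0.000775). Under siPRMT1 it was at -1.03 ± 0.16 (adjusted p = 0.000253). None of the 5 RUNX1T1 probes exceeded the level of olfactory receptor probes on more than 1 array. The sources used here do not say whether they lie in the part that AE9a holds, so they do not check the line. On the second principal component of the tested probes, wild type control 3 scored -15.8, beside the wild type siPRMT1 arrays (-6.54, -0.454 and -18.0) and away from the other wild type controls (21.9 and 21.7). Effects of siPRMT1 in wild type cells are given with and without that array for PRMT1, for the members whose fold change is printed and for the genes most like TNFRSF10B. It was picked for this likeness, so leaving it out tends to widen the array-wide difference between the wild type groups. All 9 markers of K562 with a probe were above that olfactory receptor level on all 12 arrays. Their summed raw intensity was 129090 to 132590 in AE9a siPRMT1 arrays and 130690 to 139496 in AE9a controls, against 93350 to 98693 in wild type siPRMT1 arrays and 94802 to 102194 in wild type controls, so the lines did not overlap. Of 15 markers of other blood cells CD3D and CD14 were above it on all arrays and 6 on none, and their summed raw intensity was 2543 to 2723 in AE9a siPRMT1 arrays, 1920.5 to 2277 in AE9a controls, 1598 to 3783 in wild type siPRMT1 arrays and 1939 to 3004 in wild type controls. Their part in the results was not tested.

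The signal of 4 genes could be followed on every array. With no detection p-values in the table, the 95th percentile of the 437 olfactory receptor probes on each array (66.7 to 79.5) stood in for background. Of the 16 member probes, 4 lay above it on all 12 arrays, 1 each for TNFRSF10A, TNFRSF10B, FADD and CFLAR. The ligand gene TNFSF10 (raw intensity 37.9 to 62.8), FAS, the receptor for FAS ligand (46.2 to 63.7), the decoy receptor gene TNFRSF10D (43.3 to 64.7) and all 4 CASP8 probes (37.6 to 69.1) were above it on 0 of 12 arrays. The 4 CASP8 probes are annotated to different transcripts of the gene. The decoy receptor gene TNFRSF10C exceeded the level on 5 arrays, with a raw intensity of 62.0 to 78.2, and the 2 CASP10 probes on 1 array each. A signal at this level is not a measurement of absence, since a weak probe reads the same as an absent transcript. In the whole-array test, 28338 probes above the 40th percentile of mean signal were fitted. It held 9 member probes, for TNFRSF10A, TNFRSF10B (3 probes), TNFRSF10C, FADD, CASP10 (2 probes) and CFLAR. FAS, TNFRSF10D, CASP8 and TNFSF10 had no tested probe.

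**Figure D1:**
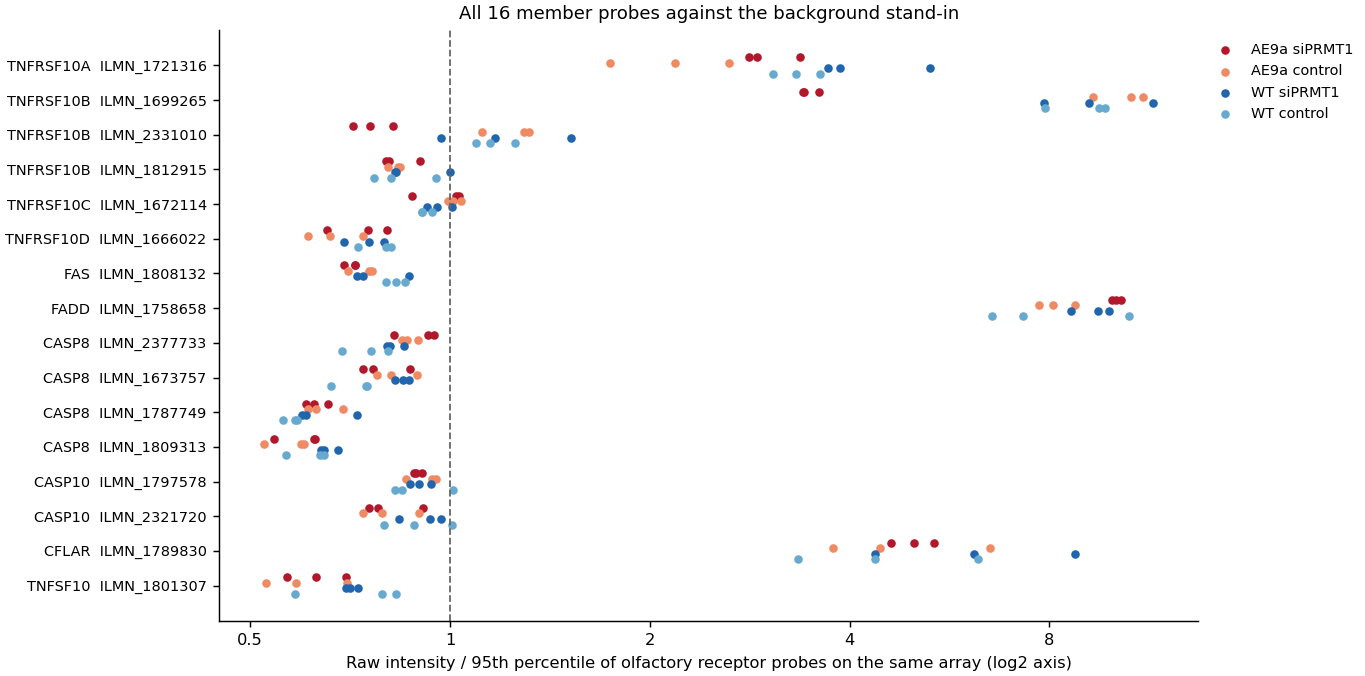
Raw intensity of each of the 16 member probes divided by the 95th percentile of the olfactory receptor probes on the same array (log2 axis), with 1 point per array and 1 colour per group. The dashed line is that percentile. The points of 4 probes lie to its right on all 12 arrays, and those of 8 probes lie at or left of it on all 12.

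TNFRSF10B, the death receptor DR5, was low in AE9a cells after siPRMT1 and close to level in the other 3 groups. Its brightest probe (ILMN_1699265) had raw intensities of 234.3, 241.2 and 239.9 in AE9a siPRMT1 arrays, against 720.9, 785.9 and 760.9 in AE9a controls. In the wild type line it read 582.2, 662.6 and 793.1 under siPRMT1, against 626.7, 722.3 and 683.5 under control siRNA. The AE9a siPRMT1 arrays were thus below all 9 others, whereas the ranges of the wild type groups overlapped. The raw means were 238.5 ± 3.67 (SD, n = 3) in AE9a siPRMT1 and 755.9 ± 32.8 in AE9a controls, and 679.3 ± 106.4 in wild type siPRMT1 and 677.5 ± 48.1 in wild type controls. After normalization the AE9a change was -1.57 ± 0.13 (log2 ± SE), 0.338 times the control level, with a 95% interval from -1.85 to -1.28. The wild type change was -0.05 ± 0.13, with an interval from -0.33 to 0.24 (adjusted p = 0.937), and -0.04 without wild type control 3. The difference of these effects, AE9a minus wild type, was -1.52 ± 0.19 (interval -1.93 to -1.11). The gene was chosen by the AE9a values, so the AE9a and difference intervals describe spread among arrays and are not a test.

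**Figure D2:**
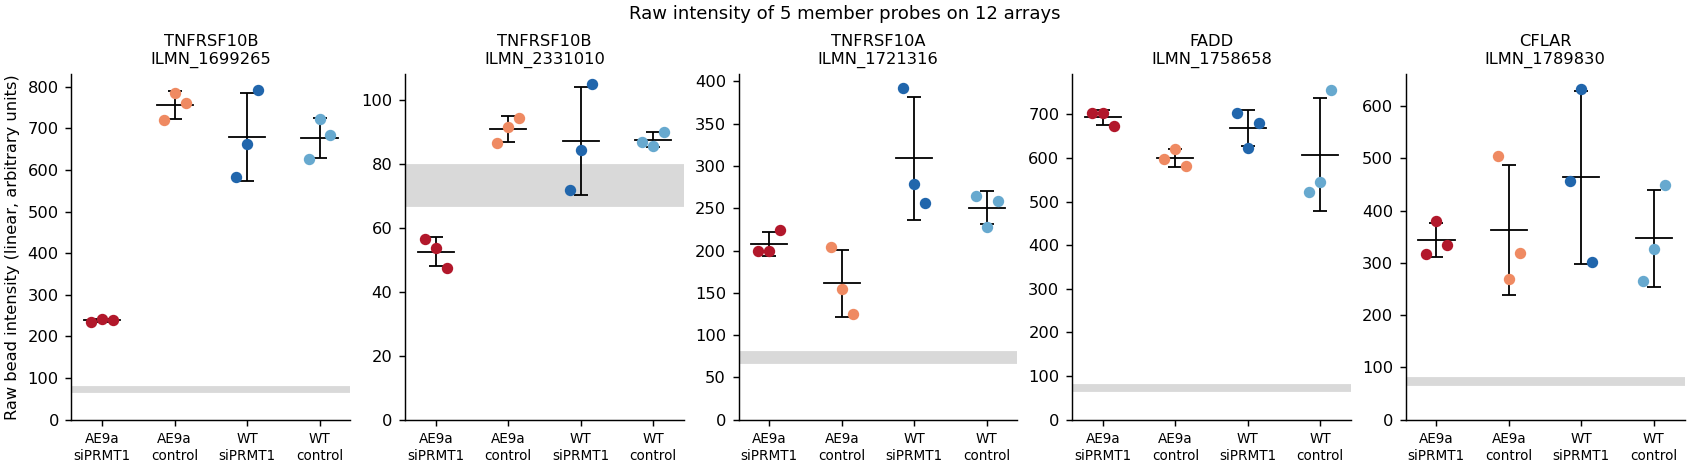
Raw bead intensity (linear, from 0) of 5 member probes on each array, in 4 groups of 3 arrays; bars are the group mean and SD, and the grey band is the range over arrays of the olfactory receptor level. The AE9a siPRMT1 points of the brightest TNFRSF10B probe (234.3 to 241.2) lie below all other arrays, while the groups of FADD, CFLAR and TNFRSF10A lie closer together.

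A further TNFRSF10B probe had the same pattern at a much dimmer signal. ILMN_2331010, annotated to another transcript of the gene, read 56.4, 53.6 and 47.6 in AE9a siPRMT1 arrays, against 86.6, 91.7 and 94.4 in AE9a controls. Its wild type intensities were 71.8, 84.4 and 105.1 under siPRMT1, against 86.9, 85.5 and 90.1 under control siRNA. It was above background on 0 of 3 AE9a siPRMT1 arrays, so only a bound can be given: at least 1.20-fold lower there than in AE9a controls, and at least 1.18-fold lower than in wild type siPRMT1 arrays, of which 2 of 3 were above background. The bound sets the brighter group's mean against the dimmer group's background level, both as normalized log2 values. The third TNFRSF10B probe, ILMN_1812915, is annotated to the same transcript as the brightest one. It was above background on 0 of 12 arrays and read 53.4 to 69.1. Its AE9a log2 fold change was -0.03 ± 0.07, which says nothing of the transcript at that signal.

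TNFRSF10A, the death receptor DR4, had the opposite sign to TNFRSF10B after siPRMT1 in AE9a cells, and between the lines it was lower in AE9a cells. Its probe read 198.9, 199.6 and 224.6 in AE9a siPRMT1 arrays, against 203.9, 155.0 and 124.8 in AE9a controls. These ranges overlapped through AE9a control 1. The change was 0.45 ± 0.16 and did not pass (adjusted p = 0.0728; over the alternatives 0.0128 to 0.297). It passed with the replicate number as a block in wild type arrays (adjusted p = 0.0376) and without AE9a control 1 (0.61, adjusted p = 0.0305). Wild type TNFRSF10A read 391.8, 278.9 and 256.5 under siPRMT1, against 264.2, 228.2 and 259.1 under control siRNA. Here too the ranges overlapped, and the change of 0.25 ± 0.16 did not pass (adjusted p = 0.675; 0.29, adjusted p = 0.393, without wild type control 3). The siPRMT1 effect on TNFRSF10A was not shown to differ between the lines (difference 0.20 ± 0.22, interval -0.27 to 0.68, adjusted p = 0.76).

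Between the lines, TNFRSF10A was the member that fell under both siRNAs. Under control siRNA its 3 AE9a arrays (124.8 to 203.9) lay below the 3 wild type arrays (228.2 to 264.2). The log2 fold change was -0.67 ± 0.16 (limma adjusted p = 0.00557), and it stayed between -0.82 and -0.53 with an adjusted p of at most 0.0369 in 25 alternative analyses. Under siPRMT1 the AE9a arrays (198.9 to 224.6) again lay below the wild type ones (256.5 to 391.8), with a change of -0.46 ± 0.16 (adjusted p = 0.0451). That call ended without wild type siPRMT1 1 (adjusted p = 0.175) or 2 (0.0768), AE9a siPRMT1 1 (0.134) or 2 (0.134), or AE9a control 2 (0.0626), and in 3 of the other alternatives. TNFRSF10B did not pass between the lines under control siRNA, at 0.15 ± 0.13 (interval -0.13 to 0.44, adjusted p = 0.471) by its brightest probe. Under siPRMT1 that probe was at -1.37 ± 0.13, a comparison that uses the AE9a siPRMT1 arrays again.

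FADD, the adaptor that links death receptors to the initiator caspases, read 703.0, 702.5 and 672.4 in AE9a siPRMT1 arrays, against 597.5, 620.6 and 581.3 in AE9a controls. The groups did not overlap, but the change was 0.25 ± 0.13 and did not pass the whole-array test (adjusted p = 0.248, interval -0.03 to 0.53). Wild type FADD read 701.9, 623.0 and 680.9 under siPRMT1, against 522.2, 544.1 and 756.6 under control siRNA, where control 3 was the highest of the 6. The wild type change was 0.11 ± 0.13 (adjusted p = 0.834), and 0.28 without wild type control 3 (adjusted p = 0.151). FADD was at -0.01 ± 0.13 between the lines under control siRNA (interval -0.29 to 0.27, adjusted p = 0.973) and at 0.13 ± 0.13 under siPRMT1 (adjusted p = 0.556).

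CFLAR, the inhibitor of caspase 8 activation, varied more between replicates than any other member that was above background on all arrays. It read 316.8, 379.9 and 334.3 in AE9a siPRMT1 arrays, against 504.0, 268.2 and 318.5 in AE9a controls. CFLAR in wild type cells read 456.7, 632.0 and 301.7 under siPRMT1, against 265.7, 325.7 and 448.5 under control siRNA. The siPRMT1 array was higher than the same-numbered control for wild type numbers 1 and 2 and lower for number 3. The CFLAR change was 0.03 ± 0.27 in AE9a cells (interval -0.55 to 0.61, adjusted p = 0.965) and 0.36 ± 0.27 in wild type cells (interval -0.22 to 0.94, adjusted p = 0.733). The wild type value was 0.07 without wild type siPRMT1 2, 0.57 without wild type control 3 and 0.82 without both number 3 arrays (adjusted p = 0.137), and in no alternative did it pass. With 3 arrays a group, the values are compatible with a CFLAR change of either sign within these intervals.

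The remaining tested members read close to background in every group. TNFRSF10C had raw intensities of 70.0, 62.0 and 68.9 in AE9a siPRMT1 arrays, against 78.2, 70.5 and 74.4 in AE9a controls. It read 68.5, 68.9 and 69.5 in wild type siPRMT1 arrays, against 72.1, 69.9 and 65.1 in wild type controls. Its changes after siPRMT1 were -0.08 ± 0.06 in AE9a cells and 0.07 ± 0.06 in wild type cells, and neither passed (adjusted p = 0.505 and 0.774). The wild type value was 0.06 without wild type control 3. Under control siRNA TNFRSF10C was above background on 2 of 3 AE9a arrays and on 0 of 3 wild type arrays. The AE9a mean was 1.04 times the wild type arrays' background level, and the limma comparison of the lines did not pass (adjusted p = 0.0675). A difference between the lines was thus not shown. The CASP10 probe ILMN_1797578 read 60.6 to 63.0 in AE9a siPRMT1 arrays, against 60.9 to 72.6 in AE9a controls, and ILMN_2321720 read 50.4 to 64.5, against 56.0 to 64.4. Both had changes within 0.13 log2 units of 0 in all 5 contrasts, and none passed. Without wild type control 3 their wild type siPRMT1 changes were 0.10 and 0.11.

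Read against the whole array, 2 of the 9 tested member probes were called lower and 0 higher after siPRMT1 in AE9a cells, both of TNFRSF10B. Of all 28338 tested probes 13.8% were called in that contrast, 7.39% lower and 6.42% higher. The median over the 9 member probes was -0.03, beside 0.01 over all tested probes. In wild type cells 0 of 9 were called by limma, as were 0% of all probes, while 2470 of all probes passed an unadjusted threshold of 0.05. The array-wide number was 850 when wild type control 3, picked for its likeness to siPRMT1 arrays, was left out, and 0 of the 9 were among them. For the difference between the lines 1 of 9 was called, the brightest TNFRSF10B probe, where 0.917% of all probes were called, with 0.618% called lower. Between the lines 1 of 9 member probes was called lower in AE9a cells under control siRNA, where 26.7% of all probes were called, 13.2% higher and 13.4% lower. Under siPRMT1 3 of 9 were called lower, where 24.7% of all probes were called and 12.8% called lower. These contrasts share arrays with one another and are not independent, and since the set was chosen in view of TNFRSF10B its counts support nothing beyond the description.

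**Figure D3:**
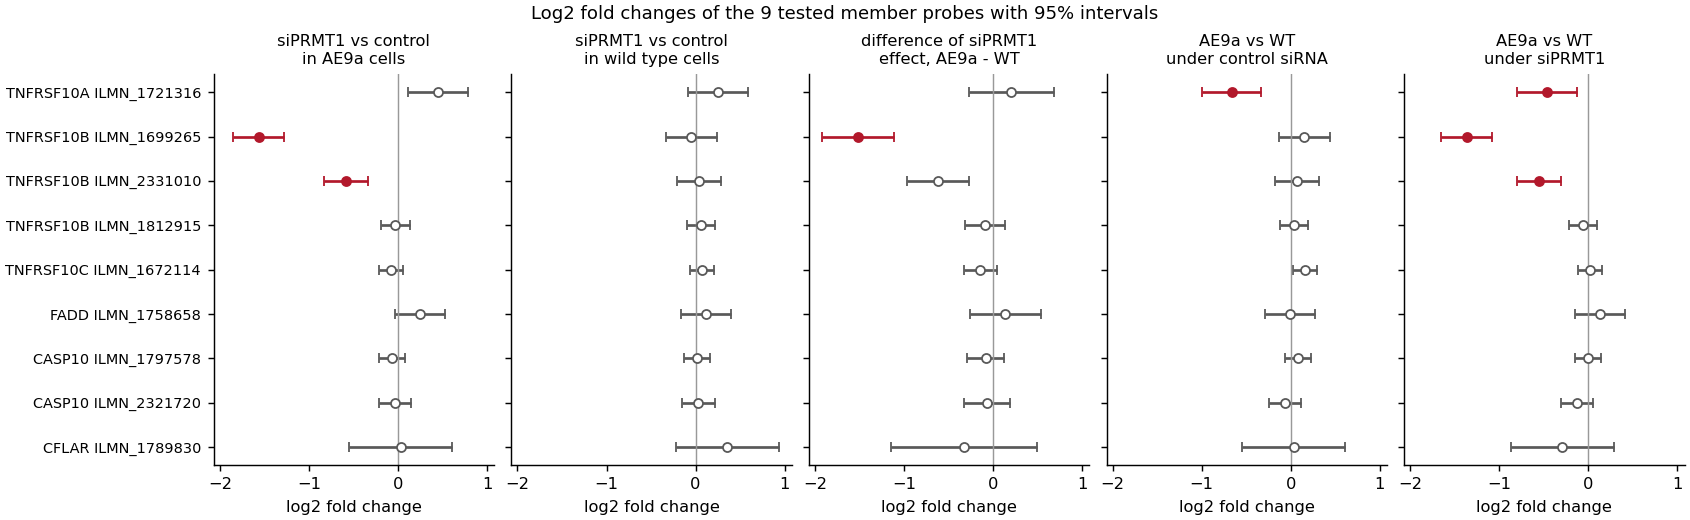
Log2 fold change with 95% interval of the 9 tested member probes in 5 contrasts; filled red points had a whole-array adjusted p below 0.05. The brightest TNFRSF10B probe is at -1.57 for siPRMT1 in AE9a cells and at -0.05 in wild type cells, and TNFRSF10A is at -0.67 between the lines under control siRNA. The red TNFRSF10B points all use AE9a siPRMT1 arrays, by which the gene was chosen, and are a description.

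None of the tested genes near TNFRSF10B was called with it, but some had a signal near background. This look at neighbours was added after the values had been seen. Of the 3 protein-coding genes on either side of the 4 receptor genes, PEBP4 and LOXL2 had no tested probe. EGR3, RHOBTB2, CHMP7 and R3HCC1 had one, above background on 3, 10, 11 and 12 arrays in that order. After siPRMT1 in AE9a cells they were at 0.01, 0.10, 0.26 and 0.21, and none passed (adjusted p = 0.972, 0.539, 0.151 and 0.232). TNFRSF10C, which follows TNFRSF10B on the chromosome, was at -0.08, with a signal above background on 5 arrays. TNFRSF10D had no tested probe, and TNFRSF10A after it was at 0.45. At the signal of EGR3 and TNFRSF10C a change could be missed.

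Several genes had values over the 12 arrays like those of the brightest TNFRSF10B probe. Likeness was the root-mean-square difference between normalized log2 values after each gene was centred on its own mean, over 13923 genes, whose median was 0.665. The smallest differences were those of PSAT1, a serine synthesis enzyme (0.164), ASNS, asparagine synthetase (0.188), SEL1L3 (0.194), CEBPG, a bZIP transcription factor (0.199), and TUBE1, epsilon tubulin (0.206). After siPRMT1 in AE9a cells these genes were at -1.55 ± 0.16, -1.72 ± 0.11, -1.52 ± 0.13, -1.27 ± 0.12 and -1.05 ± 0.14 in the same order. Their wild type changes lay between -0.25 and -0.03, and between -0.27 and 0.15 without wild type control 3, where PSAT1 was at 0.15 and TUBE1 at 0.02. The ranking mostly reflects the step between AE9a siPRMT1 arrays and the rest, as the arrays are 4 groups and not 12 independent conditions.

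**Figure D4:**
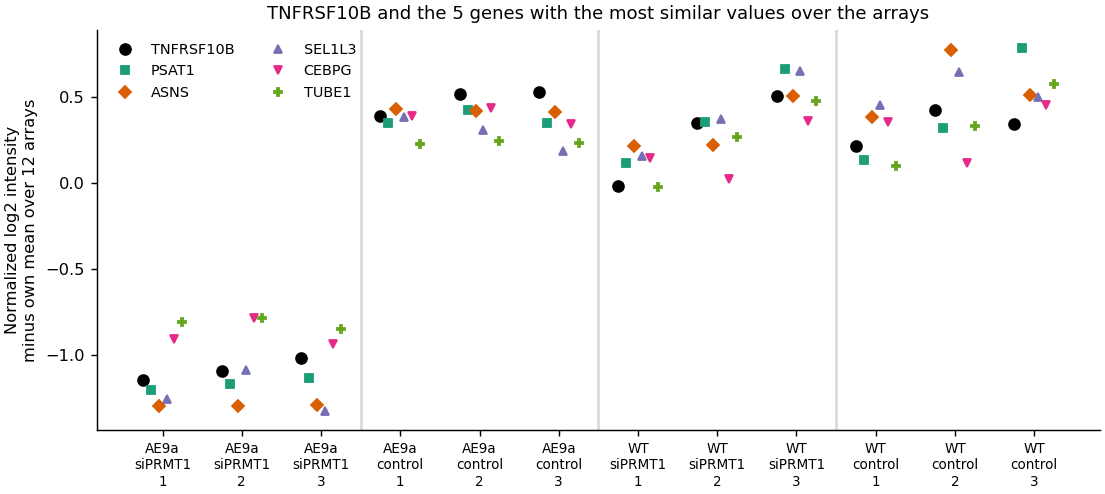
Normalized log2 intensity minus its own mean over the 12 arrays, for TNFRSF10B (brightest probe) and the 5 genes with the smallest root-mean-square difference from it (0.164 to 0.206); each point is 1 array. For all 6 genes the AE9a siPRMT1 arrays lie below the 9 other arrays.

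Further genes of the pathway were taken from 4 lists, by each gene's brightest tested probe. All 4 lists were chosen with earlier results of these data known, so their counts, medians and p-values are a description. The shares and medians over all tested probes include dim probes, where calls are harder to reach. They are therefore not a matched reference for the brightest probe of a gene. Of 7 tested death receptor and ligand genes outside the set, 2 rose and 0 fell after siPRMT1 in AE9a cells (median 0.36, beside 0.01 over all probes). Over all tested probes 6.42% were called higher and 7.39% lower in that contrast. They were TNFRSF21, the death receptor DR6 (0.74 ± 0.17, adjusted p = 0.0105), and TNFRSF1B, a TNF receptor without a death domain (0.45 ± 0.13, adjusted p = 0.0283). Both calls ended without AE9a control 2 or AE9a siPRMT1 3, where the list had 0 calls, and the TNFRSF1B call also without AE9a control 1 or 3 or AE9a siPRMT1 1, under median scaling (adjusted p = 0.0569) and with no filter (0.0574). Between the lines TNFRSF21 was at -1.65 ± 0.17 under control siRNA (adjusted p = 6.09e-06). Under siPRMT1 it was at -0.91 ± 0.17 (adjusted p = 0.00118).

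Of 14 tested partners of death domain and ubiquitin signalling, 1 fell and 1 rose in AE9a cells (median -0.00), beside 13.8% of all probes called. RBCK1, a subunit of the linear ubiquitin ligase that acts at TNF-type receptors, was at -1.15 ± 0.15 (adjusted p = 0.000424), a call that held without each single array. DAXX, a FAS-binding protein and histone chaperone, rose by 0.51 ± 0.13 (adjusted p = 0.0179), a call that ended without AE9a control 1 or 2 or AE9a siPRMT1 2 or 3. Between the lines under control siRNA, 2 of the 14 rose and 4 fell, beside 13.2% of all probes called higher and 13.4% lower. PEA15, a death effector domain protein, was at -1.15 ± 0.11 (adjusted p = 1.79e-06), and SHARPIN, another subunit of that ligase, at -0.78 ± 0.10 (6.06e-05).

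Of 15 tested caspases and apoptosome genes downstream, 3 rose and 1 fell in AE9a cells (median 0.29), beside 13.8% of all probes called. PARP1, a caspase substrate, rose by 0.46 ± 0.12 (adjusted p = 0.02), BID, which carries the CASP8 signal to mitochondria, by 0.52 ± 0.14 (0.0253) and DFFB, the caspase-activated DNase, by 0.57 ± 0.16 (0.0268). The 4 calls were fragile, since 0 of 15 remained without AE9a control 2, AE9a control 3 or AE9a siPRMT1 3, 1 without AE9a siPRMT1 2, 2 without AE9a control 1 and 7 without wild type control 3. Between the lines under control siRNA 5 rose and 2 fell, where 26.7% of all probes were called. XIAP, an inhibitor of caspases, was higher in AE9a cells by 0.64 ± 0.10 (adjusted p = 0.000259), the mitochondrial nuclease ENDOG by 0.72 ± 0.13 (0.000601) and CASP2 by 0.55 ± 0.12 (0.00367).

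The fourth list held transcription factors, stress kinases and related regulators, several of which are known to act on TRAIL receptor genes in human cells. Of 16 tested, 7 fell and 0 rose after siPRMT1 in AE9a cells (median -0.23), beside 7.39% of all probes called lower and 6.42% higher. Of the 16, 6 to 7 fell and at most 1 rose without each single array. CEBPG was at -1.27 ± 0.12 (adjusted p = 4.49e-05), DDIT3 (CHOP), a stress-induced factor known to raise TNFRSF10B transcription, at -1.43 ± 0.19 (0.000396) and TRIB3, a pseudokinase induced by DDIT3, at -1.67 ± 0.28 (0.00172). In wild type cells 0 of 16 were called. Leaving out wild type control 3 gave 1 call higher here, 2 higher among the death receptors and ligands, and 2 higher and 1 lower among the caspases. For the difference between the lines 4 of 16 were called more negative in AE9a cells, beside 0.618% of all probes, among them CEBPG (-1.14 ± 0.17, adjusted p = 0.00711), ATF3 (-1.50 ± 0.30, 0.0359) and DDIT3 (-1.21 ± 0.26, 0.0478). Of the 4, the CEBPG call alone held without each single array, and the count was 1 to 6 over those fits. Since this list was chosen with earlier results known, its counts beside the array shares are a description and not an enrichment. The part of these regulators in the TNFRSF10B values was not tested. In AE9a against wild type cells under control siRNA, 5 of the 16 were higher and 2 lower. Of all probes 13.2% were called higher and 13.4% lower there. JUN was at 2.59 ± 0.16 (adjusted p = 2.49e-08), MYC at -1.19 ± 0.13 (8.98e-06) and NFKB1 at -1.21 ± 0.19 (0.000273). DDIT3 and TRIB3, added after their values were seen, were at 0.88 ± 0.19 (adjusted p = 0.00266) and 1.67 ± 0.28 (0.000446) in that comparison.

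**Figure D5:**
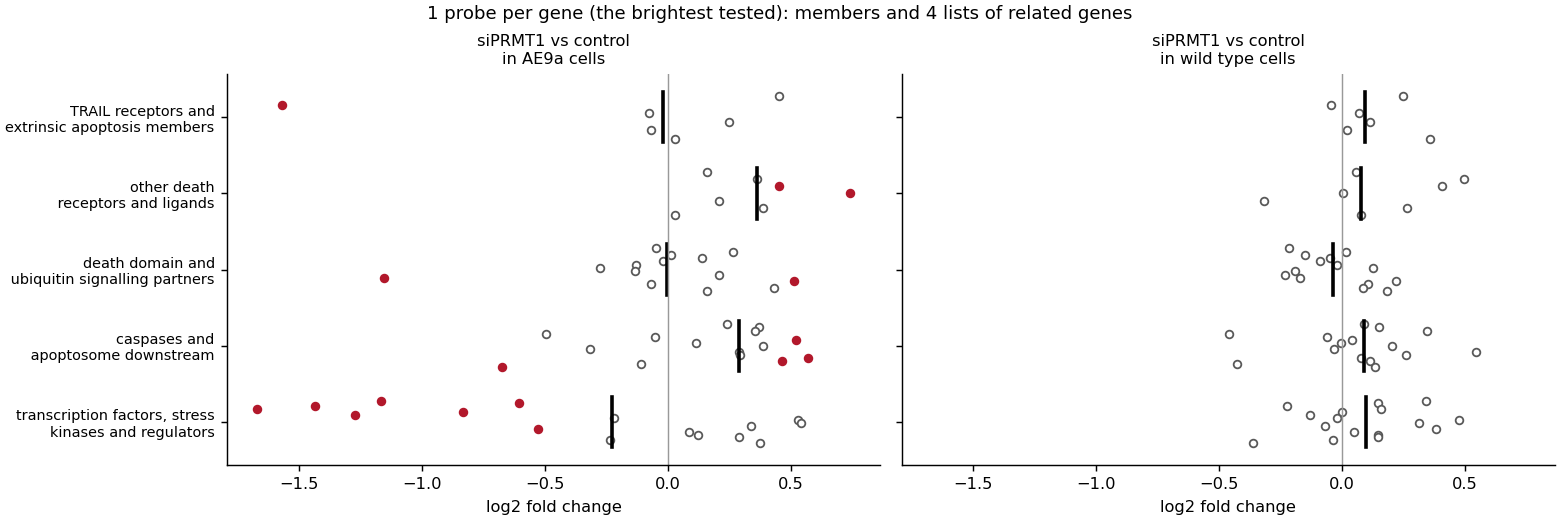
Log2 fold change after siPRMT1 in AE9a cells (left) and wild type cells (right), 1 point per gene by its brightest tested probe, for 6 members and 4 lists of 7, 14, 15 and 16 genes; filled red points had a whole-array adjusted p below 0.05 and black bars are medians. Red points number 1, 2, 2, 4 and 7 from top to bottom on the left, and there are 0 on the right. Members and lists were chosen with earlier results known, so the red points are a description.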

How the data were processed

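Per the labels' protocols, column-purified total RNA was copied into biotin-labelled cRNA and hybridised to Illumina BeadChips. Each array column of the deposited raw table is a bead intensity, not normalized, without detection p-values. GenomeStudio is named in the submitters' processing notes, with no role given. The submitters' processed intensity (linear and not centred, column medians 65.5 to 65.8) served as an alternative. Its normalization was not stated in the labels or headers. Median raw intensity was 60.5 to 74.3 per array, and the number of arrays limits the precision.

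Probes were named through the supplied platform annotation (30113 probes with 1 symbol, 8 with several, 17110 with none). In limma 3.58.1 (R 4.3.3), normexp background correction with an offset of 50 was followed by quantile normalization. Probes with a mean above the 40th percentile were fitted with 1 mean per group over all 12 arrays (lmFit, eBayes with trend). Log2 fold changes carry standard errors, and two-sided p-values were Benjamini-Hochberg adjusted over all 28338 probes, threshold 0.05. The code was tested on simulated data. Members and lists were chosen with earlier results of these data known. All member probes were named, at most 3 called genes per list and contrast, and the 5 genes nearest to TNFRSF10B. The neighbouring genes, and DDIT3 and TRIB3 between the lines, were added after their values were seen. Same-numbered arrays deviated together in wild type cells (r = 0.578, 0.283 and 0.536) and not in AE9a cells (-0.203, -0.296 and 0.000655). The number may therefore mark paired arrays in wild type cells, which the labels do not state. The 3 values of a line are not independent, and the main fit used no block.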

Additional observations from a re-analysis of the deposited data

Results flagged for a closer look

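The brightest TNFRSF10B probe stood out because its siPRMT1 effect differed between the lines in the interaction term: the difference, AE9a minus wild type, was -1.52 ± 0.19 on the log2 scale. All 3 AE9a siPRMT1 arrays were below the 3 AE9a controls, whereas the wild type groups overlapped. The gene was among those whose values were known when the set was chosen, so the difference is a description. It lay between -1.67 and -1.40 in 24 alternative analyses. Groups of 3 arrays are too small for a search for outlying samples.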

How the results depend on the processing

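Each of the 9 tested member probes was recomputed in 5 contrasts under up to 25 alternatives, 1076 values in all, where the probe stayed in the test. Of these, 1059 kept their side of the threshold, 8 lost a call, 9 gained one and 0 reversed as calls. All 8 losses were TNFRSF10A between the lines under siPRMT1: -0.53 with normexp offset 16 (adjusted p = 0.0529), -0.49 with the submitters' values (0.0504), -0.46 with no filter (0.0522), and 5 of the fits without a single array. The brightest TNFRSF10B probe stayed between -1.70 and -1.54 after siPRMT1 in AE9a cells. The number of member probes called after siPRMT1 in AE9a cells was 1 in place of 2 among probes above background on all 12 arrays, where the dimmer TNFRSF10B probe is not tested, and 2 to 3 without single arrays. For the difference between lines it was 2 in place of 1 with the replicate block in wild type arrays or with array weights, and 1 to 2 without single arrays. Between the lines under control siRNA it was 2 in place of 1 under median scaling, where TNFRSF10C passed (adjusted p = 0.0471), 3 with no filter, where CASP8 probes at background passed, and 1 to 2 without single arrays. The replicate block over all 12 arrays changed none of these calls. The number of probes called over the whole array after siPRMT1 in AE9a cells, 3913, became 7101 with array weights, 6570 with only the groups compared, 6091 with the replicate block in wild type arrays and 2088 to 2268 without AE9a control 2 or 3 or AE9a siPRMT1 3. In wild type cells the 0 became 850 without wild type control 3, 426 without both number 3 arrays and 14 with the replicate block in wild type arrays. That count stayed 0 without any other single array. Wild type control 3 was picked for lying beside siPRMT1 arrays, so leaving it out favours calls in that contrast. For the difference between lines the 260 became 1241 with that block, 473 without a trend, 455 with array weights, 402 with the replicate block over all arrays and 82 to 347 without single arrays. Over all alternatives the calls after siPRMT1 in AE9a cells numbered 0 to 4 of the death receptors and ligands (2 above), 1 to 5 of the partners (2), 0 to 9 of the caspases (4) and 6 to 10 of the regulators (7), and the last had 1 to 7 calls for the difference (4). TNFRSF10A after siPRMT1 in AE9a cells also passed with array weights (0.0128) and with only the groups compared (0.0386). Signal over background limits TNFSF10, FAS, TNFRSF10D, CASP8, CASP10 and TNFRSF10C, and 1 probe each limits most members.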
